A study of Mus musculus with 4 samples.

Results

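The dual-specificity MAP kinase phosphatases are 10 genes, Dusp1, Dusp2, Dusp4, Dusp5, Dusp6, Dusp7, Dusp8, Dusp9, Dusp10 and Dusp16, and they were taken by symbol from a table of 28193 genes. All 10 were in the table, and all 10 were among the 22338 genes that could be tested, which needed over 5 counts in each of the 4 libraries. The RNA came from fosTRAP-seq, in which ribosomes carrying an HA-tagged Rpl22 protein are pulled down from neurons that were active during an earlier event. Male C57BL/6J mice of 3 to 5 months, with the label genotype cFos-Cre:Ribotag, were all sleep deprived for 5 h by gentle handling on day 0 and all received 4-hydroxytamoxifen, so that cells with an active Fos promoter were tagged. The study's methods describe the tag as a pair of AAV vectors injected into the CA1 region of the hippocampus, 1 with a Fos-driven, tamoxifen-dependent Cre and 1 with a Cre-dependent HA-Rpl22. On day 7 the SD group was sleep deprived for a further 5 h and the non-sleep deprived (NSD) group was left undisturbed, and tissue, CA1 in the methods and dorsal hippocampus in the labels, was collected at ZT5, 5 h after lights on. Each library pooled the CA1 of 5 mice, with 2 libraries per group, and each of the 2 labelled batches held 1 NSD and 1 SD library. Every animal had therefore been tagged and sleep deprived once, and the comparison concerns the second bout.

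MAP kinases (ERK, JNK and p38) are switched on when a MAP kinase kinase phosphorylates both a threonine and a tyrosine in their activation loop. The dual-specificity MAP kinase phosphatases remove both phosphates and so end the signal. Several of them are transcribed in response to the same signal they end, which makes them feedback inhibitors, and in neurons some behave as activity-induced genes. Dusp1, Dusp2, Dusp4 and Dusp5 encode nuclear enzymes, Dusp6, Dusp7 and Dusp9 encode cytoplasmic enzymes that prefer ERK, and Dusp8, Dusp10 and Dusp16 encode enzymes that prefer JNK and p38.

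The promoters of 4 members are shown because they hold motifs of factors that neuronal signalling activates, the cAMP response element (CRE) bound by CREB or the CArG box bound by SRF. Each is the 150 bases before the start of the canonical transcript in GRCm39, on the gene's strand. Capitals mark a CRE (TGACGTCA), the shorter core CRE (TGACG) or a CArG box, on either strand. The Dusp5 sequence is at chr19:53517382-53517531 (plus strand), Dusp4 at chr8:35274292-35274441 (plus strand), Dusp1 at chr17:26727494-26727643 (minus strand) and Dusp8 at chr7:141649053-141649202 (minus strand). Beyond the member itself, the annotation places exons of a gene on the opposite strand in each stretch, Gm50394 over all 150 bases of Dusp5, Gm56852 over 101 of Dusp4, Gm56886 over 134 of Dusp1 and Gm32786 over 95 of Dusp8. The exons of other Dusp1 transcripts reach 13 bases into the Dusp1 stretch.
Dusp5: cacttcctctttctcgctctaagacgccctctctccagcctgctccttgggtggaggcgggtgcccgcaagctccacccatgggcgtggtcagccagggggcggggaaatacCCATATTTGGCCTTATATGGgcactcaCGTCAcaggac
Dusp4: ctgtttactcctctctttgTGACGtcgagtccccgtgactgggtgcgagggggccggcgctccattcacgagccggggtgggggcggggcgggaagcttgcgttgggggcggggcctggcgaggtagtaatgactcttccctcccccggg
Dusp1: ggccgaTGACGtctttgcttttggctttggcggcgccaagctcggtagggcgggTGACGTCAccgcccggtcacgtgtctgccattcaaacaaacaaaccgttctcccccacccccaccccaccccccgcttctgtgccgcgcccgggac
Dusp8: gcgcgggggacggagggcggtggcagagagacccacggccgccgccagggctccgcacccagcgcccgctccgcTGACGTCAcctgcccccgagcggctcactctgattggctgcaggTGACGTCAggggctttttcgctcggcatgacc

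Positions of motifs are those of the first base of a match relative to the transcript start, and the search covered 250 bases before to 50 bases after it. Dusp5 held 2 CArG boxes that abut each other, at -38 and -28, and a core CRE at -11. Of 16943 promoters of protein-coding genes of the table, 1.43% held a CArG box, and Dusp5 was the 1 member that did. Dusp1 held a full CRE at -96 and a separate core CRE at -144, Dusp8 held 2 full CREs at -76 and -32, and Dusp4 held a core CRE at -131. A full CRE was present in 2 of 10 members and in 2.77% of all promoters. A core CRE, which every full CRE contains, was present in 5 of 10 members (the fifth being Dusp16, at 37 bases after the start) and in 26.3% of all promoters. The EGR motif GCGNGGGCG matched in Dusp2, Dusp10 and Dusp16, 3 of 10 members against 7.70% of promoters, and the GC box GGGCGG in 9 of 10 members against 51.9%. The AP-1 motif TGANTCA matched in 0 of 10 members and in 5.92% of promoters. A match describes the letters of the window, and binding was not measured.

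**Figure D1:**
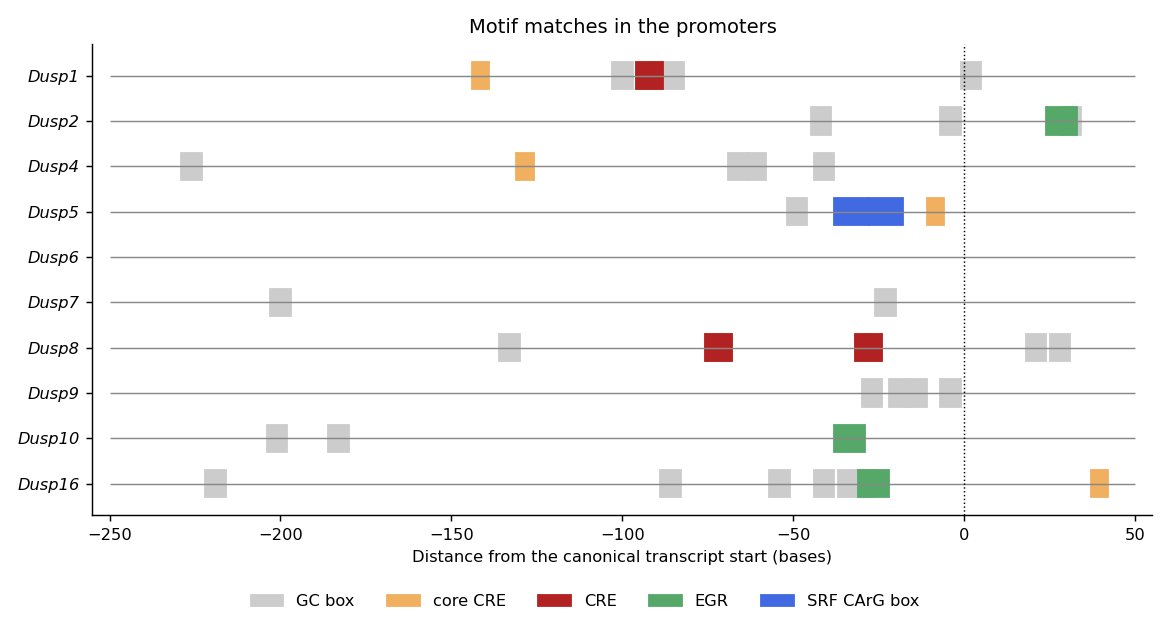
Matches to 5 motifs on either strand in the promoters of the 10 MAP kinase phosphatases, each box spanning the match, along the distance in bases from the canonical transcript start. Dusp5 holds the 2 CArG boxes at -38 and -28, Dusp8 2 CREs, Dusp1 1 CRE, and Dusp6 none of the 5 motifs.

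Levels are given in CPM, for which TMM factors bring the libraries to a common total and correct for their composition, and levels of different genes are compared only per kilobase of exons. In NSD libraries Dusp8, a phosphatase of JNK and p38, stood highest at 32.1 and 32.6 CPM per kilobase. Dusp6 (20.6 and 26.3) and Dusp7 (23.4 and 22.7), both ERK phosphatases of the cytoplasm, followed and could not be ordered, since Dusp7 was above Dusp6 in NSD 1 and below it in NSD 2. Dusp4 came next at 12.5 and 14.7 CPM per kilobase, above Dusp5 at 9.21 and 10.8, and in SD libraries these were 17.7 and 18.3 against 16.4 and 16.3. The levels then fell to Dusp1 (4.55 and 4.62 CPM per kilobase in NSD), Dusp16 (1.86 and 1.82) and Dusp10 (1.13 and 1.21). Dusp2 (0.253 and 0.255) and Dusp9 (0.0849 and 0.0768) were the lowest, and these 2 were each counted between 42 and 153 times per library. The other 8 members had at least 1144 counts in every library. Dusp8, Dusp6 and Dusp7 together held 72.0% and 70.9% of the family's summed CPM per kilobase in NSD and 66.2% and 66.5% in SD.

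**Figure D2:**
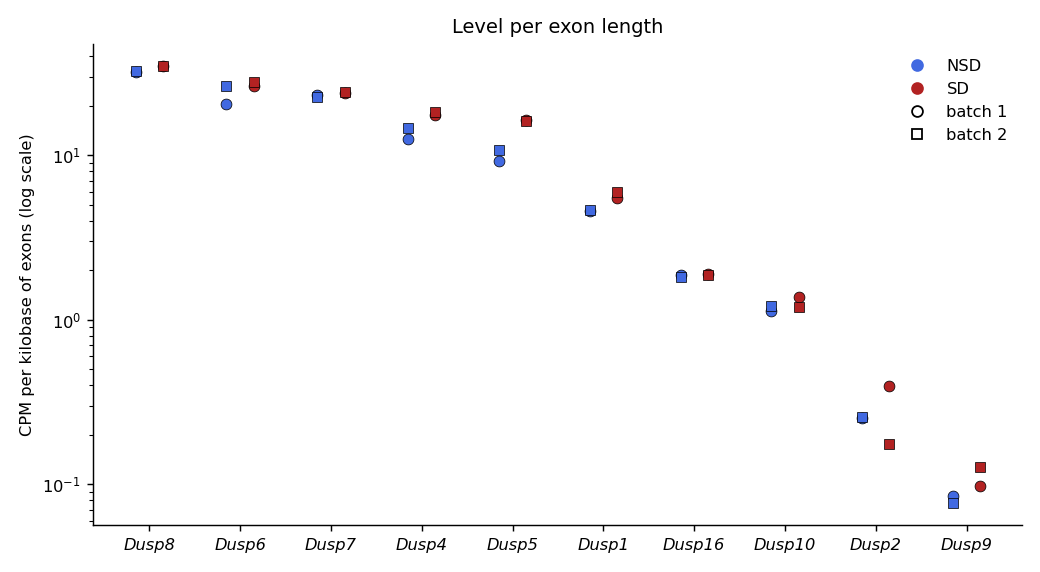
CPM per kilobase of exons on a log scale for each MAP kinase phosphatase in the 2 NSD (blue) and 2 SD (red) libraries, with circles for batch 1 and squares for batch 2, ordered by the NSD mean. Dusp8 stands at 32.1 to 35.0 and Dusp9 at 0.0768 to 0.128, and the points of Dusp6 and Dusp7 overlap.

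SD was compared with NSD to ask whether a second bout of sleep loss moved these transcripts on the ribosomes of tagged neurons. Dusp5 and Dusp4, both nuclear, rose. No member was called lower by edgeR, with or without the block, or by DESeq2. Of all tested genes, edgeR called 2.33% lower without the block and 8.47% with it, and DESeq2 1296 of 22338. A call needed an edgeR quasi-likelihood adjusted p (Benjamini-Hochberg over all genes tested) under 0.05 and a fold change over 1.2. By this rule 2 of 10 members were called higher, where 0.770% of all tested genes and 0.952% of tested protein-coding genes were. Both SD libraries were above both NSD libraries in 7 of 10 members, and this held for 22.0% of all tested genes and 26.5% of protein-coding ones. The estimated log2 fold change was above 0 in all 10 members, against 54.2% of protein-coding genes, but the 95% interval excluded 0 in 3 of them. An interval that excludes 0 has an unadjusted edgeR p under 0.05. The share of all tested genes with such a p was not counted, so this count and the later ones by unadjusted p have no background. The median log2 fold change of the members was 0.19, where that of all tested genes was -0.02 and that of protein-coding genes 0.02. Within batches the members' median was 0.28 in batch 1 and 0.10 in batch 2. Since the table pools RNA from tagged cells, more cells of a kind in the pull-down and more RNA per cell cannot be told apart. Markers of endothelial cells moved with the groups, opposite in direction to Dusp4 and Dusp5. They summed to 36.8 and 52.1 CPM in NSD and to 30.7 and 20.7 CPM in SD, and both SD libraries were below both NSD libraries in 5 of 6 of them, where 27.5% of all tested genes were. None of the 6 was called in the edgeR fit, where 5 had an unadjusted p under 0.05, and 4 were called lower with the block and 3 by DESeq2. Of all tested genes, the block called 8.47% lower and DESeq2 1296 of 22338. Each of the 6 fell more in batch 2 than in batch 1, where Pecam1 was 0.13 higher in SD on the log2 scale. Of the markers of pyramidal neurons, CA1 and the dentate gyrus, 4 in each list, Neurod6, Wfs1, Fibcd1 and Lct were also lower in both SD libraries. Mpped1 was higher in both, and the remaining markers of these lists overlapped between the groups. The part of these markers' cells in the values of the phosphatases was not tested.

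**Figure D3:**
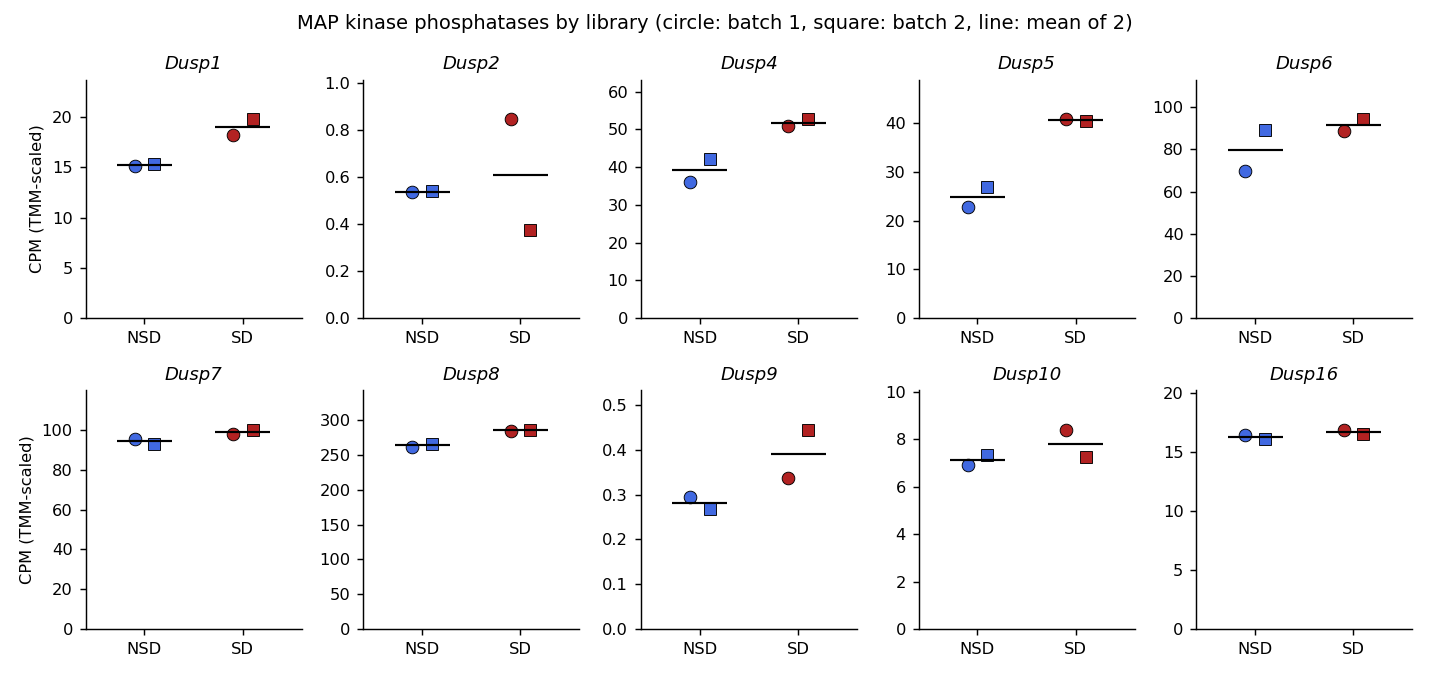
TMM-scaled CPM of each MAP kinase phosphatase in every library, NSD in blue and SD in red, with circles for batch 1, squares for batch 2 and a line at the mean of the 2 libraries; each axis starts at 0. Dusp5 moves from 22.8 and 26.8 to 40.7 and 40.3, and the SD points lie above the NSD points for 7 members.

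Among the nuclear phosphatases, Dusp5, which acts on ERK alone, was at 22.8 and 26.8 CPM in NSD 1 and NSD 2 and at 40.7 and 40.3 CPM in SD 1 and SD 2. The SD libraries differed from each other by 0.985% and the NSD libraries by 17.3%, and the groups were far apart relative to both. The fold change was 1.63 (95% interval 1.42 to 1.88), or 0.71 on the log2 scale with a standard error of 0.089 (edgeR adjusted p = 0.0328). Within batches the log2 difference was 0.83 in batch 1 and 0.59 in batch 2. As a share of the family's summed CPM per kilobase, which does not depend on library scaling, Dusp5 was at 8.71% and 9.39% in NSD and at 12.8% and 12.4% in SD. Its call was lost when filterByExpr of edgeR replaced the count filter (edgeR adjusted p = 0.0628), the highest of its alternatives, of which the lowest was 1.22e-09 with DESeq2. The Dusp5 gene (ENSMUSG00000034765, chr19:53517540-53530862 in GRCm39) shares 555 exon bases, 22.4% of its exons, with the opposite-strand gene Gm50394, which averaged 0.236 CPM. The kit kept strand, but whether the counting used it is not given in the sources used here.

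Dusp4 (ENSMUSG00000031530, chr8:35274451-35287048), which acts on ERK and JNK, was at 36.1 and 42.3 CPM in NSD and at 50.9 and 52.6 CPM in SD. The highest NSD library lay below the lowest SD library, and the fold change was 1.32 (95% interval 1.15 to 1.51, 0.40 on the log2 scale with a standard error of 0.086, edgeR adjusted p = 0.0481). The difference was 0.50 on the log2 scale in batch 1 and 0.32 in batch 2. This call rested on NSD 1, since without that library the log2 fold change was 0.32 and the edgeR adjusted p 0.0827. The call was also lost with no count filter, with filterByExpr and with protein-coding genes only (edgeR adjusted p of 0.0557, 0.0759 and 0.0757), and the lowest adjusted p was 0.000743 with DESeq2.

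Dusp1 (ENSMUSG00000024190, chr17:26724564-26781102), which acts on all of the ERK, JNK and p38 kinases and is a classical immediate early gene, was at 15.1 and 15.4 CPM in NSD and at 18.2 and 19.8 CPM in SD. The groups did not overlap, the log2 fold change was 0.32 (standard error 0.087, fold 1.25, 95% interval 1.09 to 1.43), and Dusp1 did not pass the call (edgeR adjusted p = 0.0890). With the replicate block, which compares the libraries of the same batch, it did (edgeR adjusted p = 0.0162), as it did with DESeq2 (adjusted p = 0.0204). Over all alternatives its adjusted p ran from 0.0162 to 0.386, the highest being the edgeR fit without SD 2. With the block 3 of 10 members were called higher against 2.99% of all tested genes. Dusp1 shares 38 exon bases with Ergic1 on the opposite strand, which averaged 121 CPM and differed by 0.04 on the log2 scale (edgeR adjusted p = 0.840).

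Dusp2, the last nuclear member and best known from lymphocytes, was at 0.537 and 0.541 CPM in NSD and at 0.846 and 0.375 CPM in SD. The SD libraries lay on either side of the NSD libraries, so the batches gave opposite signs, 0.66 and -0.53 on the log2 scale. The estimate of 0.18 (95% interval -0.86 to 1.22, edgeR adjusted p = 0.890) corresponds to an interval for the fold of 0.553 to 2.32, and it turned to -0.52 without SD 1. The summed CPM of the 4 nuclear members was 74.6 and 85.0 in NSD and 111 and 113 in SD.

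**Figure D4:**
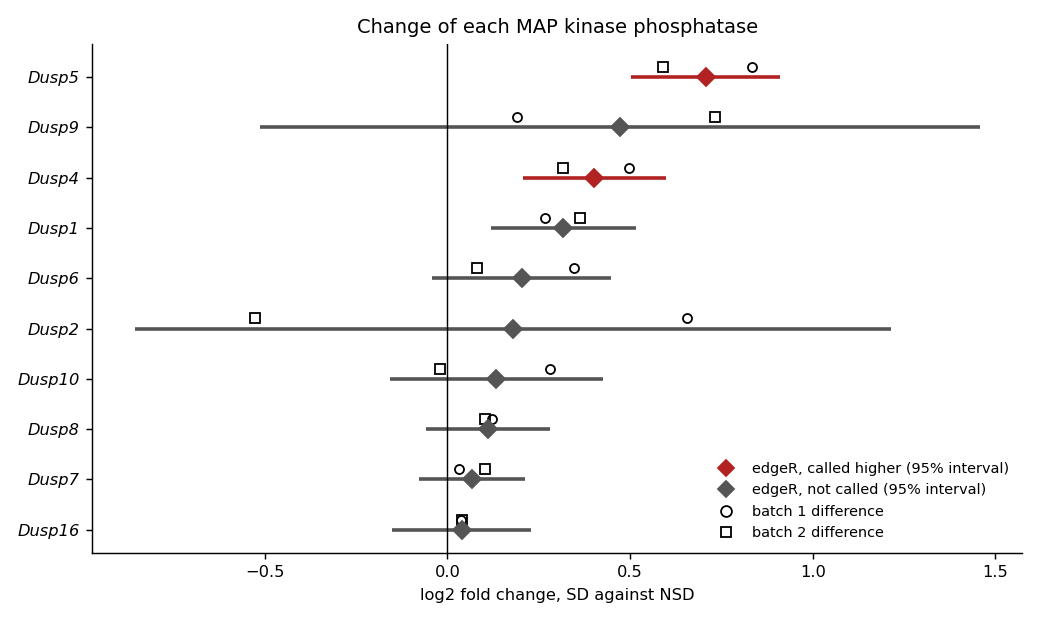
Log2 fold change of SD against NSD for each MAP kinase phosphatase from the edgeR fit, with 95% intervals as bars, red where called higher, and open symbols for the difference within batch 1 (circles) and batch 2 (squares). Dusp5 (0.71) and Dusp4 (0.40) are called, the interval of Dusp1 also lies above 0, and the batches of Dusp2 fall on opposite sides of 0.

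Of the cytoplasmic ERK phosphatases 0 of 3 were called by edgeR or DESeq2, and 0 of 3 had an unadjusted edgeR p under 0.05. With 0.770% of all tested genes called higher by edgeR and 2.33% lower, 0 of 3 is near the share of all genes. Dusp6, a feedback inhibitor that ERK signalling itself induces, was at 69.9 and 89.0 CPM in NSD and at 88.9 and 94.2 CPM in SD. NSD 2 was level with SD 1 and the NSD libraries differed by 27.4%. On the log2 scale SD was 0.20 higher (standard error 0.11, 95% interval -0.04 to 0.45, edgeR adjusted p = 0.359), with 0.35 in batch 1 and 0.08 in batch 2. It was 0.39 without NSD 2 (edgeR adjusted p = 0.0367, a call) and 0.07 without NSD 1 (edgeR adjusted p = 0.799), and with the replicate block the adjusted p was 0.0439 but the log2 fold change of 0.21 stayed under the fold threshold. Dusp7 was nearly level, at 95.7 and 93.1 CPM in NSD and at 97.8 and 99.9 CPM in SD. Its 95% interval for the fold ran from 0.947 to 1.16 (edgeR adjusted p = 0.657). Dusp9, known from placenta and from insulin-responsive tissue, was rare at 0.296 and 0.267 CPM in NSD and at 0.337 and 0.444 CPM in SD. Its estimate of 0.47 carried a standard error of 0.43 (edgeR adjusted p = 0.638).

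None of the phosphatases that prefer JNK and p38 was called, by edgeR or DESeq2, and 0 of 3 had an unadjusted edgeR p under 0.05. For 3 genes the absence of a call is again near the share of all tested genes. Dusp8 was at 262 and 266 CPM in NSD and at 286 in both SD libraries. This order was the same in both batches, at 0.12 and 0.10 on the log2 scale, and the fold change of 1.08 (95% interval 0.961 to 1.22, edgeR adjusted p = 0.483) was not called. Dusp10 was at 6.90 and 7.35 CPM in NSD and at 8.39 and 7.25 CPM in SD, and the groups overlapped (0.13 on the log2 scale, edgeR adjusted p = 0.657). Dusp16 was at 16.4 and 16.1 CPM in NSD and at 16.9 and 16.6 CPM in SD, with a 95% interval for the fold of 0.900 to 1.17 (edgeR adjusted p = 0.867). By the CRE and CArG matches of the promoters, Dusp8 with 2 CREs had a log2 fold change of 0.11 and Dusp1 with 1 CRE 0.32. Dusp4 with a core CRE had 0.40, Dusp16 with a core CRE after the start 0.04, and Dusp5 with the paired CArG boxes and a core CRE 0.71. Members without these matches had 0.47 (Dusp9), 0.20 (Dusp6), 0.18 (Dusp2), 0.13 (Dusp10) and 0.07 (Dusp7). A relation of motifs to the change was not tested. The summed CPM was 166 and 182 in NSD against 187 and 195 in SD for the cytoplasmic class, and 285.8 and 289.8 against 310.8 and 309.9 for the JNK and p38 class.

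The rest of the pathway was taken from lists of genes by role. Of the Ras, Raf and Ksr genes, which carry the signal from receptors to the kinases, 1 of 8 was called higher and none lower. This was Ksr2, a scaffold that holds Raf, MEK and ERK together, at 311 and 311 CPM in NSD and at 425 and 417 CPM in SD (0.44 on the log2 scale, edgeR adjusted p = 0.0385). Of 7 MAP kinase kinases 0 were called in the edgeR fit and 1 had an unadjusted p under 0.05. With the block, as with DESeq2, Map2k6, the activator of p38, was called higher (0.27 on the log2 scale, edgeR adjusted p = 0.0173 with the block and 0.0944 without). Map2k4, an activator of JNK, was at 160 and 176 CPM in NSD and at 170 and 178 CPM in SD. Of the 14 MAP kinases themselves 0 were called with or without the block or by DESeq2, and 2 had an unadjusted edgeR p under 0.05, with a median log2 fold change of 0.07. Mapk10, the neuronal JNK, was at 410 and 448.5 CPM in NSD and at 434 and 424 CPM in SD, or -0.00149 on the log2 scale (edgeR adjusted p = 0.996). Of 11 kinases downstream of ERK and p38, 0 were called by edgeR without the block and 2 had an unadjusted p under 0.05, and Rps6ka2, a ribosomal S6 kinase, was called higher with it (0.32 on the log2 scale, edgeR adjusted p = 0.00538 with the block and 0.0689 without).

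Of the other inhibitors and phosphatases listed, 3 were called higher in the edgeR fit and 0 lower. Among the Sprouty and Spred genes, which block Ras and Raf activation, 2 of 6 were called higher. Spry4 was at 31.0 and 31.0 CPM in NSD and at 48.3 and 47.3 CPM in SD (0.62 on the log2 scale, edgeR adjusted p = 0.0328). Spred1 was at 163 and 171 CPM in NSD and at 213 and 212 CPM in SD (0.35 on the log2 scale, edgeR adjusted p = 0.0464). Of 13 atypical dual-specificity phosphatases in the table, which lack the kinase-docking domain of the MAP kinase phosphatases, 1 was called higher and 0 lower, where 2.33% of all tested genes were called lower, and DESeq2 called 2 higher and 1 lower. Dusp19, a regulator of JNK signalling, was the one called, at 8.94 and 9.55 CPM in NSD and at 12.9 and 14.6 CPM in SD (0.58 on the log2 scale, edgeR adjusted p = 0.0397). Its exons overlap those of Nup35 on the same strand by 131 bases, and Nup35 averaged 2.50 CPM. The second by DESeq2 was Dusp26, at 31.4 and 31.7 CPM in NSD and at 37.9 and 37.5 CPM in SD (DESeq2 adjusted p = 0.0148, edgeR adjusted p = 0.0825). With the block Dusp11, an RNA phosphatase, and Styx, a catalytically inactive member, were called lower, where 8.47% of all tested genes were. Dusp11 was at 39.1 and 34.2 CPM in NSD and at 28.6 and 23.4 CPM in SD (-0.50 on the log2 scale, edgeR adjusted p = 0.0532 without the block and 0.000322 with it), and Styx at 7.45 and 6.41 against 5.68 and 4.25 CPM (-0.48, edgeR adjusted p = 0.172 and 0.0179). Dusp3, the most abundant of them per kilobase, was at 203 and 227 CPM in NSD and at 251 and 252 CPM in SD (edgeR adjusted p = 0.173). Of 8 other phosphatases of MAP kinases 0 were called by edgeR without the block and 3 had an unadjusted p under 0.05, and Ppm1a, a serine and threonine phosphatase, was called higher with it (0.27 on the log2 scale, edgeR adjusted p = 0.0190 with the block and 0.124 without). The median log2 fold change was 0.36 for the nuclear MAP kinase phosphatases, 0.20 for the cytoplasmic ones and 0.11 for those of JNK and p38. It was 0.17 for the Sprouty and Spred genes, 0.12 for the Ras, Raf and Ksr genes, 0.08 for the other phosphatases of MAP kinases, 0.07 for both the atypical phosphatases and the MAP kinases, and 0.03 for both the MAP kinase kinases and the kinases downstream.

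**Figure D5:**
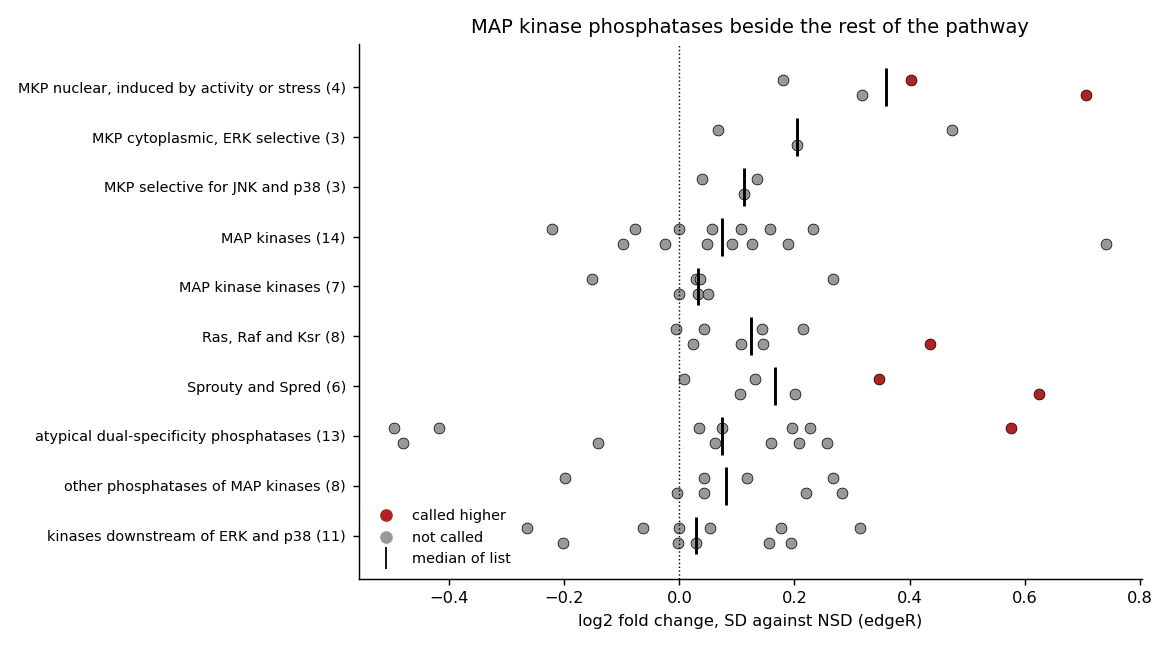
Log2 fold change of SD against NSD (edgeR) of each gene in the 3 classes of MAP kinase phosphatases and the 7 lists of other pathway genes, red where called higher, with a bar at each list's median and the number of genes tested in brackets. Red points are Dusp4, Dusp5, Ksr2, Spry4, Spred1 and Dusp19, and no MAP kinase or MAP kinase kinase is red.

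The genes whose pattern over the 4 libraries came nearest to each called member were found among 12992 protein-coding genes with a mean of at least 1 CPM, by the Euclidean distance of mean-centred log2 CPM. Nearest to Dusp4 was Nr4a1, an activity-induced nuclear receptor, at a distance of 0.0174 log2 units, with 90.6 and 105 CPM in NSD and 128 and 130.1 CPM in SD. Ephx2 (distance 0.0306) and Slc5a5 (0.0328) followed. Nearest to Dusp5 were Stbd1 (0.114), Stc2 (0.135) and Adamts2 (0.139), so that no gene matched Dusp5 as closely as Nr4a1 matched Dusp4. The distance is not scaled to the size of the change, which was larger for Dusp5 than for Dusp4. Of these near genes Nr4a1 and Adamts2 had an edgeR adjusted p under 0.05 (0.0472 and 0.0363), and the others did not. With 4 libraries such nearness is a description of these values.

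As a check on the groups, Arc, an activity-induced gene, was at 199 and 233 CPM in NSD and at 386 and 426 CPM in SD (0.91 on the log2 scale, edgeR adjusted p = 0.0328). Fos itself was at 271 and 513 CPM in NSD and at 336 and 375 CPM in SD, so that the NSD libraries lay on either side of the SD libraries (edgeR adjusted p = 0.827). Library totals were between 153511705 and 195910235 counts. None of the 41 markers of neurons, glia and vessels was at 0 in any library. In the edgeR fit 0 of 41 were called, where 11 had an unadjusted p under 0.05. With the block 1 was called higher and 9 lower, against 2.99% and 8.47% of all tested genes, and DESeq2 called 1 higher and 7 lower, against 671 and 1296 of the 22338 genes. Markers of pyramidal neurons summed to 5749 and 6145 CPM in NSD and to 5739 and 6151 CPM in SD, most of it Camk2a. Neurod6 was at 123 and 152 CPM in NSD and at 103 and 113 CPM in SD, and was called lower with the block and by DESeq2, while the other 3 pyramidal markers overlapped between the groups. Called lower in the same 2 fits were 2 of the 4 CA1 markers, Wfs1 (390.0 and 441 against 279 and 355 CPM) and Fibcd1 (185 and 217 against 150.4 and 166 CPM), while Mpped1 was higher in SD without overlap and Pou3f1 overlapped. Of the 4 dentate gyrus markers Lct alone did not overlap, at 52.5 and 53.3 CPM in NSD and at 31.7 and 43.0 CPM in SD. Sums of astrocyte, microglial and oligodendrocyte precursor markers overlapped between the groups.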

How the data were processed

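fosTRAP-seq libraries of 2 NSD and 2 SD pools were analysed. Per the study's methods, reads were trimmed and aligned with STAR to mm39 (GRCm39). The deposited values are unnormalized estimated counts, assigned to genes of Ensembl release 110 by Partek's E/M model. Totals were 153511705 to 195910235 per library, so counting error is small except for Dusp2 and Dusp9, and the spread between 2 pools sets the precision. The study gives 10 mice per group and 5 per pool, and p-values measure the spread between these 2 pools.

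Estimated counts were rounded. Genes counted over 5 times in each library were fitted with edgeR 4.0.16 in R 4.3.3 (TMM scaling, quasi-likelihood, condition as the only term), with two-sided tests and Benjamini-Hochberg adjustment over 22338 genes. Standard errors and 95% intervals come from the quasi-likelihood F statistic. The study's filter and call thresholds were kept, and its tool, DESeq2 (1.42.0 here), is an alternative. On simulated data edgeR recovered 130 of 192 changed genes among 22057, with 3 false calls. Recovery was counted over all changed genes together, and recovery at the fold changes of the members was not tested. Libraries with the same number share a labelled batch, so the numbers pair them, and their deviations from the group means correlated at 0.178 across genes. The fit with the replicate block is an alternative, with other scalings and filters, and each library left out. Exon lengths and transcript starts came from GENCODE vM39 on the same build.

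The members, gene lists and tests were chosen with earlier results of these data known. The genes named are the 10 members, every gene of the pathway lists called with or without the block and the one with the most counts in each (which also depends on exon length), the 3 nearest in pattern to each called member, and Fos and Arc. Dusp26 and the single markers named were chosen after their values were seen, and Ergic1, Nup35 and the Gm genes are named for exons that overlap a named gene or its promoter. In the deposited table, 4 of the listed atypical phosphatases and 1 Sprouty gene had no row.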

Additional observations from a re-analysis of the deposited data

How the results depend on the processing

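Of 100 log2 fold changes of single members under an alternative setting, 91 kept their direction and their side of the call, 5 lost a call, 3 gained one and 1 changed sign, Dusp2, which ran from -0.52 without SD 1 to 0.66 without SD 2. The count of members called higher was 2 in the edgeR fit, 2 with DESeq2's size factors and 2 with no fold threshold. It was 1 with no count filter (28193 genes tested), 1 with protein-coding genes only, 0 with edgeR's filterByExpr (24323 genes tested, 1 gene called in all), and 1 with a fold threshold of 1.5, leaving Dusp5 in the 3 cases with a call. Under filterByExpr the edgeR adjusted p was 0.0628 for Dusp5 and 0.0759 for Dusp4, and the cause was not tested. With the replicate block it was 3, as with DESeq2. Leaving out 1 library gave 1 to 3 members, the lowest without NSD 1 and the highest without NSD 2, with the lone library assumed to vary like the other group. The block raised the calls over all genes from 172 higher and 520 lower to 668 and 1891, DESeq2 made 671 and 1296, and the range without 1 library was 124 to 308 higher and 78 to 1955 lower. No count filter gave 50 and 80 calls, protein-coding genes only 51 and 39, DESeq2's size factors 229 and 457, and filterByExpr 1 and 0. The median log2 fold change of the members ran from 0.17 (without NSD 1) to 0.26 (without SD 2), and that of all genes moved by under 0.1 with scaling. The order of the members per kilobase was the same for 10 of 10 with the longest transcript as the length. Dusp9 had 42 to 84 counts per library, and the SD libraries of Dusp2, at 153 and 71 counts, differed by 125% in CPM, so that the spread between pools limits Dusp2.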
